A study of Mus musculus with 4 samples.

Results

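Ribosomal protein genes encode the protein components of the small (40S) and large (60S) ribosomal subunits and of the acidic stalk of the large subunit, to which translation factors bind. Their mRNAs are among the most abundant of a cell, and many begin with a run of pyrimidines that ties their translation to growth signals. In the intestinal epithelium, dividing crypt cells give rise to absorptive enterocytes and to secretory cells, and loss of Apc gives adenomas with active Wnt signaling. The genes described here were chosen by symbol alone: all Rpl and Rps genes of the gene tables, with Rplp0, Rplp1, Rplp2 and Rpsa, without Rps6k genes and pseudogenes. They were 83 of the 27514 genes present in every gene table: 32 of the 40S subunit, 48 of the 60S subunit and 3 of the stalk. All 83 were annotated as protein coding, on 19 chromosomes. The rule also takes in 6 paralogs (Rps27l, Rpl22l1, Rpl7l1, Rpl39l, Rpl3l and Rpl10l). Of the 83 genes, 80 passed the filter on low counts. The other 3 were near 0, with 17 unique molecular identifiers (UMIs) for Rpl39l, 7 for Rpl3l and 0 for Rpl10l over all cells of the 5 classes.

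Unsorted cells of small intestinal tumors were profiled by single-cell RNA sequencing in 4 libraries from C57BL/6 mice labelled male and aged 11 weeks, with 3 to 10 tumors pooled per library. The 2 ApcMin libraries were labelled ApcMin/+ with wild-type Lef1. The 2 VApcMinL libraries were labelled ApcMin/+ with floxed Lef1 and Villin-Cre, a recombinase driven in the intestinal epithelium. Replicate 1 of each label was made with 10x Genomics 3′ kit version 2 and replicate 2 with version 3. The labels do not say that the libraries came from separate animals in each case, so p-values measure the spread between these libraries, which may in part be technical.

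Counts of the targeted gene were higher under VApcMinL in kit 2 and lower in kit 3. Lef1 in adenoma cells was 8.82 CPM (UMIs scaled to a common library total) in the library labelled ApcMin replicate 1 and 27.2 in the library labelled VApcMinL replicate 1, against 32.2 and 21.1 in the kit 3 libraries. Reads from the 3′ end also count transcripts from which the deletion removed inner exons, so these counts do not show whether Lef1 was lost. Notum, a marker of adenoma cells, moved the same way. It was 89.9 and 396 CPM in adenoma cells of the ApcMin and VApcMinL libraries of kit 2, and 260 and 88.9 in kit 3. A link between the 2 genes was not tested. Xist, which is expressed from the inactive X chromosome of female cells, was 1132 and 326 CPM in the adenoma cells of the 2 VApcMinL libraries and 0.0689 and 0.0656 in those of the 2 ApcMin libraries. All libraries were labelled male, so Xist in the VApcMinL libraries went against that label. Groups are therefore named below as labelled. Of the barcodes with at least 2000 UMIs, 20.4% to 26.6% were removed for more than 20% mitochondrial UMIs in 3 libraries and 61.6% in the library labelled ApcMin replicate 2. Of the 11286 barcodes kept, 8746 were assigned by marker genes to adenoma, crypt, enterocyte, secretory and immune classes of 3803, 417, 2854, 366 and 1306 cells. The others passed no gate (1548), passed more than 1 (477), or were stromal (385) or red cells (130). Adenoma cells were those with at least 3 of 8 adenoma markers (Notum, Nkd1, Wif1 and others), and crypt cells those with at least 3 of 7 crypt markers and at most 1 adenoma marker. None of the markers was a ribosomal protein gene. The crypt class was poorly marked in kit 2. The 7 crypt markers summed to 6.20 and 4.70 UMIs per 10000 in crypt cells of the ApcMin and VApcMinL libraries of kit 2, below the 7.45 and 6.49 in their adenoma cells, against 12.9 and 20.9 in crypt and 8.74 and 7.86 in adenoma cells of kit 3. Olfm4, a stem cell marker, was 26.7 and 6.54 CPM in crypt cells of kit 2 and 819 and 1361 in those of kit 3. Crypt cells of kit 2 were set apart from adenoma cells mainly by low adenoma markers, at 0.689 and 0.505 UMIs per 10000 against 7.21 and 18.8. At most 9 barcodes were shared by a pair of libraries.

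The starts of ribosomal protein transcripts were examined first, because the pyrimidine run at the 5′ end is the feature these genes are known to share. RefSeq start sites (GRCm38.p6) were held for 63 of the members. A run of at least 7 pyrimidines on the strand of the gene, overlapping the 20 bases before to the 30 bases after a listed start, was found in 47 of the 63 (74.6%), against 37.6% of all 27025 genes. The letters CCGGAAG, the core bound by ETS factors, stood on either strand of the 300-base promoter in 41.3% of members and 9.93% of all genes. The E-box letters CACGTG stood in 9.52% of members and 8.09% of all genes. A match is a description and not a binding site. The windows below run from 10 bases before the listed start through the first 20 bases of the transcript, with runs of at least 7 pyrimidines in capitals. A run that the window cuts can show fewer capitals, as at the end of the Rps27 window. They are shown for Rps6 and for members named in the comparisons below.
Rps6 (chr4:86857348-86857377, minus strand): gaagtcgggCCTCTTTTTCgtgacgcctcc
Rpl15 (chr14:18270967-18270996, minus strand): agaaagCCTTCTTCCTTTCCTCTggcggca
Rpl12 (chr2:32961702-32961731, plus strand): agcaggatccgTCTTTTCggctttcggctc
Rps27 (chr3:90213629-90213658, minus strand): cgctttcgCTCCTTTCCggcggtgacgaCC
Rps27l (chr9:66946076-66946105, plus strand, the first of 2 listed starts): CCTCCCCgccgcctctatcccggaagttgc
Rpl22l1 (chr3:28805498-28805527, plus strand): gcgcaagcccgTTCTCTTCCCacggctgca
Rps3a1 (chr3:86142649-86142678, minus strand): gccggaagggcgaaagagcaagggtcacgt
Rps2 (chr17:24720053-24720082, plus strand): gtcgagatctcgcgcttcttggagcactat
The run lay across or just after the start in Rps6, Rpl15, Rpl12, Rps27 and Rpl22l1. It lay before the start in Rps27l, and none stood in the windows of Rps3a1 and Rps2. The Rps2 window lies inside the annotated gene, which begins at 24718116. That of Rps3a1 lies inside a gene that begins at 86142702 on the minus strand. An absent run in these windows therefore does not show that the transcripts lack one. Windows of other members shown, such as Rpl15, also lie inside the annotated gene.

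Crypt cells gave the largest share of their UMIs to ribosomal protein genes and enterocytes the smallest, in each of the 4 libraries. In crypt cells the share was 33.1% in ApcMin replicate 1, 29.3% in VApcMinL replicate 1, 24.4% in ApcMin replicate 2 and 26.8% in VApcMinL replicate 2. In adenoma cells it was 30.9%, 25.0%, 21.8% and 25.0% in the same order. Adenoma cells thus lay just under crypt cells in every library, although the ranges of the 2 classes over libraries overlapped and the crypt class of kit 2 was not set apart by crypt markers. In secretory cells the share was 23.5%, 19.7%, 11.0% and 17.2%, and in immune cells it was 21.3%, 21.1%, 19.7% and 21.4%. In enterocytes it was 15.6%, 10.1%, 7.66% and 11.7%, below every other class of the same library. The exact 95% binomial intervals of these shares were at most 0.192 percentage points wide and cover counting error only.

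**Figure D1:**
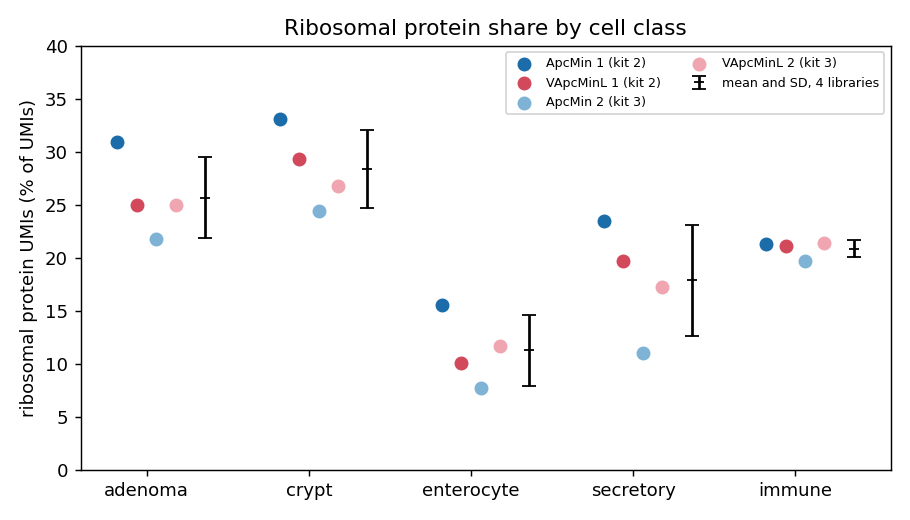
Share of UMIs from the 83 ribosomal protein genes (percent, y axis) in the 5 cell classes (x axis), with 1 point per library and the mean and SD over 4 libraries at the right of each class. Crypt cells sit above adenoma cells in every library, and enterocytes sit lowest.

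The share in adenoma cells differed from that in crypt cells by -2.73 ± 1.12 percentage points (SD, n = 4), lower in 4 of 4 libraries. In the kit 3 libraries alone the difference was -2.65 and -1.79 points. Adenoma cells were 14.4 ± 0.897 points (SD, n = 4) above enterocytes, 7.80 ± 2.22 points above secretory cells and 4.80 ± 3.29 points above immune cells, each in 4 of 4 libraries. The ratio of adenoma to enterocyte shares ranged from 1.98 to 2.84. Each of these differences had p = 0.12 by the exact two-sided sign-flip permutation test over libraries (Benjamini-Hochberg adjusted p = 0.139 over 10 pairs of classes), which is the smallest p that 4 libraries allow. Secretory and immune cells were not ordered alike in all libraries, with secretory cells higher in 1 of 4 and a mean difference of -3.01 ± 4.55 points (exact permutation p = 0.375, n = 4).

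Values that moved with the classes stood beside these shares. The median share of mitochondrial UMIs was 11.3% to 13.4% in enterocytes and 3.03% to 6.92% in the other classes. With the mitochondrial UMIs left out of the total, the enterocyte shares were 17.4%, 11.4%, 8.80% and 13.2%. The median depth per cell was 18920 to 34412.5 UMIs in adenoma cells and 3732 to 4897 in immune cells. Barcodes with 10 to 100 UMIs, which hold mostly free RNA, had ribosomal protein shares of 15.4% to 20.8%, above those of enterocytes in the same library. The part of these values in the class differences was not tested.

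Single cells of a class varied widely. In enterocytes of the library labelled ApcMin replicate 2, the share in single cells was 1.41% at the 10th percentile and 14.0% at the 90th, with a median of 4.33%. In adenoma cells of VApcMinL replicate 2 the same percentiles were 20.5% and 29.0%. Secretory cells of ApcMin replicate 2 had a median of 3.23%, although their summed share, in which deeper cells weigh more, was 11.0%. Across cells of the 4 libraries, the Spearman correlation of the share with UMIs per cell was 0.539 to 0.715 in secretory cells and 0.436 to 0.578 in enterocytes. It was 0.0125 to 0.463 in adenoma, -0.218 to -0.0150 in immune and -0.424 to -0.109 in crypt cells. Both quantities share the cell's total. With the mitochondrial share the correlation in enterocytes was -0.496 to -0.234.

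Among secretory cells, goblet cells, which make mucus, had shares of 8.85% to 25.6% over libraries. Hormone-producing enteroendocrine cells ranged from 5.85% to 22.5%, but a library held as few as 4 of them. Among the immune cell types with at least 24 cells in each library, T cells were highest, at 28.6%, 25.4%, 21.7% and 25.4% in the library order used above. Antibody-secreting plasma cells had 18.8%, 19.4%, 20.2% and 21.9%, and myeloid cells 21.6%, 17.0%, 16.4% and 17.5%. T cells thus exceeded myeloid cells in every library, and the make-up of the immune class differed between libraries, with 260 plasma cells of 539 immune cells in ApcMin replicate 1 and 32 of 247 in VApcMinL replicate 2.

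Within enterocytes, the share fell along the enterocyte markers. Cells of each library were split in 3 by the UMIs of 12 absorptive genes such as Apoa1, Fabp1 and Alpi, and the share was taken over all UMIs other than those markers and mitochondrial genes. It went from 23.9% in the lowest group to 16% and 11.0% in ApcMin replicate 1, and from 19.3% to 8.38% and 5.91% in VApcMinL replicate 1. In kit 3 it went from 14.3% to 8.73% and 5.28% in ApcMin and from 19.8% to 13.0% and 7.50% in VApcMinL. The group with most marker UMIs differed from that with fewest by -11.9 ± 1.96 points (SD, n = 4), lower in 4 of 4 libraries (exact permutation p = 0.12, the smallest possible). The split was chosen after the class values were seen. The median mitochondrial share was 9.02% to 12.1% in the lowest group and 12.2% to 13.8% in the highest. The median depth, in the same library order, was 12858, 13857.5, 26731 and 18803 UMIs in the lowest group. In the highest group it was 7960.5, 10592, 27513 and 14923 UMIs. The part of depth in the fall was not tested.

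**Figure D2:**
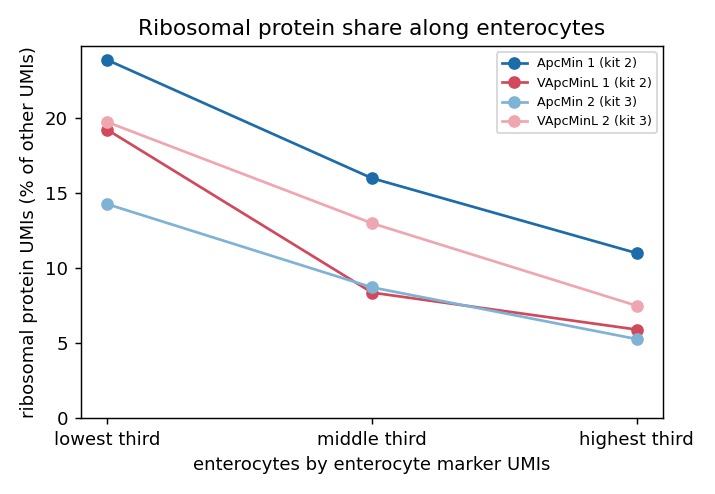
Ribosomal protein share of UMIs other than enterocyte markers and mitochondrial genes (percent, y axis) in enterocytes split in 3 by marker UMIs (x axis), with 1 line per library. All 4 lines fall from the fewest to the most marker UMIs.

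Among adenoma cells, those with at least 3 of 8 cell-cycle markers had higher shares than those with none, by 2.93 ± 2.25 points (SD, n = 4), in 4 of 4 libraries (exact permutation p = 0.12, a split chosen after the class values were seen). The shares were 31.3% against 30.1%, 26.2% against 22%, 22.4% against 17.0% and 25.1% against 24.3%. The cycling cells were also deeper, with medians of 25540 to 43863.5 UMIs against 11224 to 17095.

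Gene by gene, 68 of the 80 ribosomal protein genes tested were lower in adenoma than in crypt cells and 0 were higher, in edgeR's quasi-likelihood test on summed counts with the library as a block (adjusted p under 0.05). Over all 11749 genes tested, 18.7% were lower and 22.4% higher. The median log2 change of the members was -0.26, against 0.04 over all genes. All 32 genes of the 40S subunit passed, against 34 of 45 of the 60S subunit and 2 of 3 of the stalk. Without the library block 0 of the 80 passed (3 at an unadjusted p under 0.05), where 1281 of all 11749 genes were lower and 1689 higher. DESeq2 with the block called 74 members lower, where 2123 of all genes were lower and 2223 higher. In the kit 3 libraries alone, a fit with fewer libraries, 2 of the 80 were lower (Rps3a1 and Rps29). In that fit 1218 of all 12257 genes were lower and 1324 higher. An unadjusted p under 0.05 was reached by 20 members and by 4257 of all genes, and the median of the members was -0.28.

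The largest falls were those of Rps3a1, Rps12, Rps29, Rps4x and Rps26, all of the 40S subunit. Rps3a1 stood at 32.1, 27.9, 28.9 and 35.2 UMIs per 10000 in adenoma cells and 40.5, 35.4, 38.7 and 42.9 in crypt cells. The adenoma value was lower in each library, and the log2 change was -0.45 ± 0.06 (SE; edgeR adjusted p = 0.000545). Rps19, whose loss causes Diamond-Blackfan anemia in humans, fell by 0.38 on the log2 scale (SE 0.06, edgeR adjusted p = 0.000915). Rpl5, which with Rpl11 and 5S RNA restrains Mdm2, fell by 0.37 (SE 0.07), whereas its partner Rpl11 had a log2 change of -0.10 (edgeR adjusted p = 0.232). At the other end, Rpl7 had a log2 change of 0.05 (adjusted p = 0.481) and Rpl41, the smallest ribosomal protein, 0.01 (adjusted p = 0.890). Rpl19, Rpl13a and Rpl11 completed the 5 highest, and none of these passed the test. With library totals in place of TMM factors, which moved the median of all genes from 0.04 to 0.14, 41 members were lower and 1 was higher, Rpl7 at 0.16. Of all 11749 genes, 1736 were then lower and 3321 higher.

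**Figure D3:**
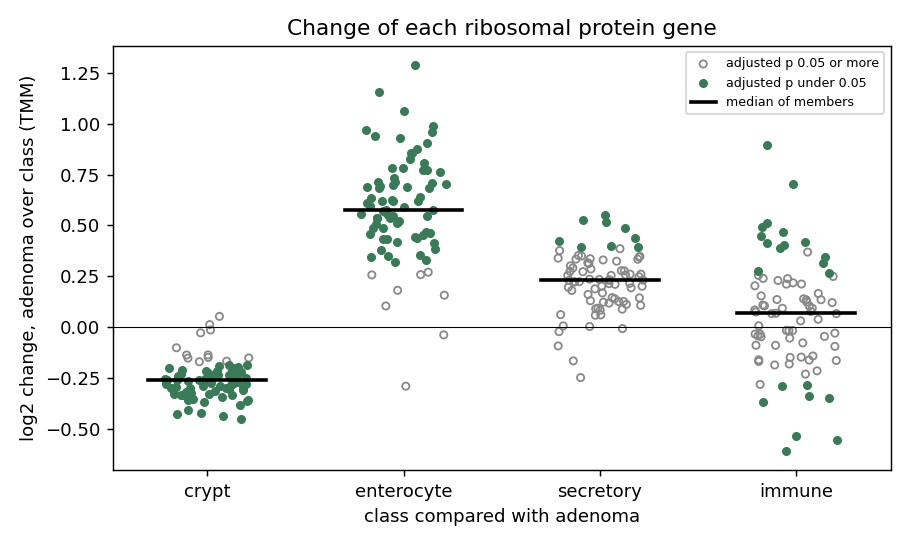
Log2 change (y axis, TMM scale) of each of the 80 tested ribosomal protein genes in adenoma cells against crypt, enterocyte, secretory and immune cells (x axis), with filled points for adjusted p under 0.05 and a bar at the median. The medians are -0.26, 0.58, 0.23 and 0.07.

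Against enterocytes, 72 of the 80 members were higher in adenoma cells and 0 were lower, where 40.8% of all 12421 genes tested were higher and 37.0% lower. The median log2 change was 0.58, against 0.08 over all genes. Rpl3, a core protein near the peptidyl transferase center, showed the largest rise. It stood at 34.5, 30.4, 26.5 and 32.7 UMIs per 10000 in adenoma cells and at 10.8, 6.9, 5.4 and 10.5 in enterocytes, with no overlap. The log2 change of Rpl3 was 1.29 ± 0.14 (SE; edgeR adjusted p = 2.6e-05). Rpl12, Rps2, Rpsa and Rpl13a followed at 1.16, 1.07, 0.99 and 0.97.

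The rise was not equal over members. Rps27l had a log2 change of -0.29 ± 0.12 (SE; edgeR adjusted p = 0.0523) and Rps29 one of -0.04 (adjusted p = 0.773), and both turned positive with library totals, at 0.36 and 0.61, where the median of all genes was 0.75. Rps27, Rps14 and Rpl28 were at 0.10, 0.16 and 0.18 and did not pass. Rps27l was lower with DESeq2, at -0.27 (adjusted p = 0.0147). With the mitochondrial limit at 10%, the median of the members was 0.34, with 62 higher and 2 lower (Rps27l and Rps29). Of all 11850 genes tested there, 4792 were higher and 3929 lower. Without the library block 27 members were higher and 0 lower, where 4538 of all 12421 genes were higher and 4083 lower.

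Against secretory cells, 9 of the 80 members were higher and 0 lower, where 21.5% of all 11866 genes were higher and 21.2% lower. The 9 were Rpl7, Rpl13a, Rps2, Rpl7l1, Rpl3, Rpsa, Rpl11, Rpl15 and Rpl27. The largest was Rpl7, at 0.55 ± 0.13 (SE; edgeR adjusted p = 0.00759), and the lowest value was that of Rps27, at -0.25 (adjusted p = 0.183). Rps29, Rpl30, Rpl38 and Rpl37a were also under 0 without passing. With library totals, which moved the median of all genes from 0.05 to 0.41, 72 members were higher. Of all 11866 genes, 4682 were then higher and 1623 lower. Leaving out VApcMinL replicate 1 gave 26 members higher, where 2216 of all 12245 genes were higher and 2370 lower. Leaving out any of the other 3 libraries gave 2 or 3 members higher. All genes higher were 2248 of 12012 without ApcMin replicate 1, 1945 of 11792 without ApcMin replicate 2 and 1909 of 11867 without VApcMinL replicate 2. Those lower were 2345, 2055 and 2036.

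Against immune cells, the members split. In adenoma cells 14 were higher and 8 lower, where 30.7% of all 12576 genes were higher and 28.0% lower, and the median of the members, 0.07, equalled that of all genes. Rps2, a 40S protein near the mRNA entry channel, stood at 63.4, 50.2, 48.9 and 58.1 UMIs per 10000 in adenoma and 24.8, 24.3, 22.9 and 26.4 in immune cells, with no overlap (log2 change 0.89 ± 0.10, SE; edgeR adjusted p = 6.6e-05). Rpl7, Rpl22l1 and Rpl15 were higher by 0.70, 0.51 and 0.49. The largest falls were those of Rps29 (-0.61 ± 0.10, SE; adjusted p = 0.000977), Rps27 (-0.55), Rps24 (-0.54), Rpl10 (-0.37) and Rpl37a (-0.35). With library totals the split was 41 higher and 1 lower, where the median of all genes was 0.34, and Rps29 was the 1 lower. Of all 12576 genes, 5201 were then higher and 2803 lower. Without VApcMinL replicate 1, without ApcMin replicate 2 and without VApcMinL replicate 2, 11, 13 and 14 members passed in place of 22. All genes higher were 3295 of 12765, 3306 of 12546 and 3399 of 12635 in the same order. Those lower were 3179, 3197 and 3252.

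The parts of the ribosomal protein UMIs taken by each subunit varied little between classes. The 40S genes took 41.7%, 42.1%, 44.1% and 44.3% in adenoma cells of the 4 libraries and 42.9%, 43.0%, 45.5% and 45.2% in crypt cells, where they were higher in each library. The stalk genes Rplp0, Rplp1 and Rplp2 took 5.22% to 5.55% in adenoma cells and 4.57% to 4.89% in immune cells.

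Other genes of ribosome production were read beside the members from lists. Of 28 ribosome biogenesis genes, 28 were higher in adenoma cells than in enterocytes, where 40.8% of all genes were higher. Their median log2 change was 2.28. Nop56, a core protein of box C/D small nucleolar ribonucleoproteins, rose most, by 3.40 (SE 0.21), and the polymerase I factor Ubtf least, by 0.32. Against crypt cells 5 of the 28 (17.9%) were lower, near the 18.7% of all genes, and 0 were higher. Of 74 mitochondrial ribosomal protein genes tested, 54 (73.0%) were lower than in crypt cells and 0 higher, against 18.7% and 22.4% of all genes. Their median was -0.34, where that of the members was -0.26. The fall against crypt cells was thus not particular to the members. Of the same 74, 33 (44.6%) were higher than in enterocytes, near the 40.8% of all genes, and 11 (14.9%) were lower, against 37.0% of all genes. Of 18 translation factors and other genes with a 5′ pyrimidine tract, 9 (50%, against 18.7% of all genes) were lower than in crypt cells and 0 higher. Against enterocytes 11 of the 18 were higher, with Npm1, a nucleolar chaperone, at 2.36, and 3 were lower, namely Fau (-0.74), Tpt1 (-0.58) and Eif4b (-0.51). Myc, which encodes a transcription factor of growth genes, stood at 33.6, 21.6, 32.9 and 45.4 CPM in adenoma cells, at 36.6, 34.5, 27.9 and 36.4 in crypt cells and at 0.902 to 3.31 in enterocytes.

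The paralog Rps27l, a p53-induced copy of Rps27, took different parts of the pair in different cells. Its share of Rps27 plus Rps27l UMIs was 21.4%, 24.5%, 33.1% and 34.4% in adenoma cells and 26.2%, 29.1%, 43.6% and 37.7% in enterocytes. Adenoma cells were lower in each library, by a mean difference of -5.81 ± 3.21 points (SD, n = 4; exact permutation p = 0.12, the smallest possible, and adjusted p = 0.179 over 10 paralog comparisons). Against crypt cells the difference was 0.771 ± 1.63 points (exact permutation p = 0.5, n = 4). Adenoma cells were higher than secretory cells by 3.91 ± 2.65 points and higher than immune cells by 11.0 ± 6.07 points, each in 4 of 4 libraries (SD, n = 4; exact permutation p = 0.12, adjusted p = 0.179). The widest of the gaps compared lay within the immune cells, between cell types whose comparison was added to those first planned. The comparisons with secretory and immune cells were also added, here and for Rpl22l1 below. T cells had 6.3%, 6.6%, 5.1% and 12.2%, and plasma cells 28.9%, 28.5%, 37.1% and 33.1%, a difference of 24.4 ± 5.13 points with 4 of 4 libraries alike (exact permutation p = 0.12, n = 4).

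**Figure D4:**
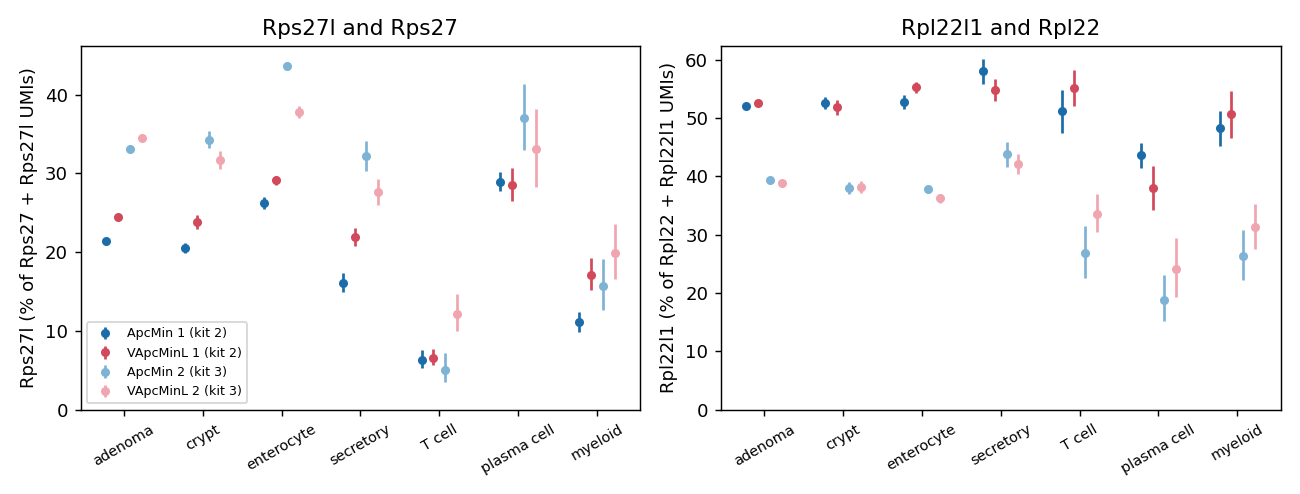
Share of the paralog in the UMIs of the pair (percent, y axis) for Rps27l with Rps27 (left) and Rpl22l1 with Rpl22 (right) in 7 cell types or classes (x axis), 1 point per library with its exact 95% binomial interval. T cells sit lowest for Rps27l, and for Rpl22l1 the kit 2 libraries sit above the kit 3 libraries in every class.

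For Rpl22l1 and Rpl22, the paralog took 52.1%, 52.5%, 39.5% and 38.8% of the pair in adenoma cells and 52.5%, 51.8%, 38.0% and 38.2% in crypt cells, a difference of 0.598 ± 0.809 points (exact permutation p = 0.25, n = 4). Against enterocytes the difference was 0.206 ± 2.40 points, with 2 libraries on either side. Adenoma cells were lower than secretory cells by a mean difference of -3.93 ± 1.57 points and higher than immune cells by 6.61 ± 5.21 points, each in 4 of 4 libraries (SD, n = 4; exact permutation p = 0.12, adjusted p = 0.179). Plasma cells had 43.6%, 38.0%, 18.9% and 24.1%, below T cells in 4 of 4 libraries (mean difference -10.5 points). Rpl7l1 took 2.0% to 2.8% of the Rpl7 pair in adenoma cells.

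Single members differed widely between the kits. As a share of ribosomal protein UMIs in adenoma cells, Rpl13a was 1.96% and 1.91% in kit 2 and 0.166% and 0.143% in kit 3, that is 11.8 and 13.4 times lower. Rpl27 was 3.03 and 3.57 times lower in kit 3, and Rps27 2.04 and 2.64 times. Rpl15 was higher in kit 3, by 1.36 and 1.34 on the log2 scale. Of 80 members, 76 moved the same way between kits under both labels, and 4 moved more than 2-fold under both. The kits were also counted with different gene tables and Cell Ranger releases, so kit, annotation and counting cannot be told apart, and many ribosomal protein genes have near-identical pseudogenes that can share their reads. The class comparisons above were made within libraries.

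The comparison of the labels set VApcMinL against ApcMin. It cannot be read as a comparison of Lef1 loss, because 3′ counts do not show whether Lef1 was lost. Lef1 UMIs in adenoma cells were higher under VApcMinL in kit 2 and lower in kit 3. Xist was high only in the VApcMinL libraries, so the sex of the mice and the label cannot be told apart. In adenoma cells the mean share was 26.3% ± 6.46 (SD, n = 2) for ApcMin and 25.0% ± 0.0127 for VApcMinL (exact permutation p = 1). In crypt cells, enterocytes, secretory and immune cells the difference VApcMinL minus ApcMin was -0.685, -0.723, 1.19 and 0.768 points (exact permutation p from 0.667 to 1, where 2 against 2 libraries cannot go below 0.33). Within kits, the difference in adenoma cells was -5.89 points in kit 2 and 3.22 in kit 3, and the sign also changed between kits in the other 4 classes. Of the 80 members in adenoma cells, 78 were lower under VApcMinL in kit 2 and 67 higher in kit 3, as CPM. In enterocytes it was 80 and 79. On the CPM scale these counts largely restate the differences in share and are not separate evidence. Each rests on 1 library per label, and directions over all genes were not counted on this scale.

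**Figure D5:**
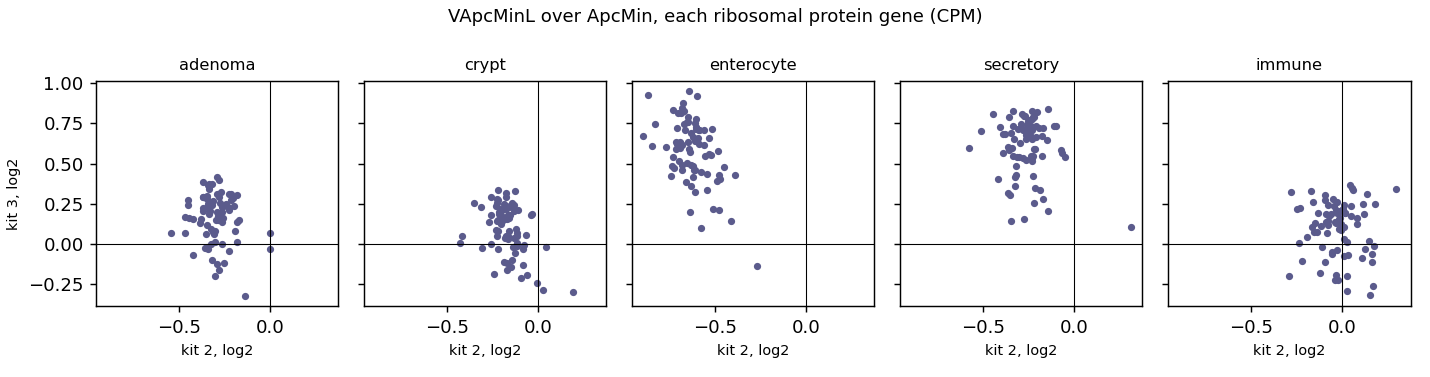
Log2 difference VApcMinL over ApcMin in CPM for each ribosomal protein gene in kit 2 (x axis) and kit 3 (y axis), 1 panel per cell class. In the first 4 panels most points lie left of 0 and above 0, the medians in adenoma cells being -0.31 and 0.20.

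With the kit as a block, edgeR called 0 of the 80 members in each of the 5 classes, with 0 at an unadjusted p under 0.05, and DESeq2 also called 0. Over all genes the same test called 0.0% of 12991 genes in adenoma cells, 0.01% of 9998 in crypt cells, 0.00917% of 10901 in enterocytes, 0.0227% of 8813 in secretory cells and 0.0445% of 8995 in immune cells. An unadjusted p under 0.05 was reached by 39, 238, 142, 153 and 522 genes in the same order. The test thus called almost no genes of any kind. In adenoma cells the members ranged from -0.26 (Rps29, SE 0.27) to 0.05 (Rpl14, SE 0.34). The difference between classes in this contrast, tested as an interaction of label with adenoma against each other class, was called for 0 members, with 0 at an unadjusted p under 0.05. It was also called for 0 of all genes tested. An unadjusted p under 0.05 was reached by 239 of 11749 genes (crypt), 227 of 12421 (enterocyte), 177 of 11866 (secretory) and 228 of 12576 (immune). The absence of calls is therefore not particular to the members.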

How the data were processed

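The authors deposited raw UMI counts of all barcodes, made with Cell Ranger on mm10; the study names release 2.1.1, the kit 3 headers name 3.1.0, and the gene tables hold 27998 and 31053 genes. Total depth was 44660305 to 128247396 UMIs per library. Genes with one identifier in all tables were kept. Barcodes had at least 2000 UMIs and at most 20% mitochondrial UMIs, and were gated by marker genes. Cells passing 2 gates, stromal cells and red cells were left out. Doublets were not removed, except as an alternative with Scrublet (scanpy 1.11.5). Members, gene lists and gate thresholds were chosen with earlier results of these data known.

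Counts were summed per library and class (at least 10 cells) and tested with edgeR 4.0.16 (quasi-likelihood, TMM, minimum count 10, Benjamini-Hochberg 0.05), with library (classes) or kit (labels) as block; DESeq2 1.42.0 was an alternative. On simulated data with 200 changed genes the fits were checked. Replicate numbers mark the kit in the labels, which pairs the libraries; paired deviations in adenoma cells correlated at 0.191. Shares were compared by exact two-sided permutation over libraries. Named genes were a fixed set by role, the paralogs with partners, and the 5 largest rises and falls per class comparison; further members were named after their values were seen. One result under this rule is not reported here.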

Additional observations from a re-analysis of the deposited data

Results flagged for a closer look

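The difference in ribosomal protein share between the labels had opposite signs in the 2 kits in each of the 5 classes, and the difference between kits was not tested, since each kit held 1 library per label. In adenoma cells, VApcMinL minus ApcMin was -5.89 percentage points in kit 2 and 3.22 in kit 3. In crypt cells it was -3.73 and 2.36, in enterocytes -5.47 and 4.02, in secretory cells -3.82 and 6.20, and in immune cells -0.203 and 1.74. The library labelled ApcMin replicate 1 had the highest share in 4 of the 5 classes and ApcMin replicate 2 the lowest in all 5; the latter also lost the most barcodes to the mitochondrial limit. Lef1 UMIs in adenoma cells were higher under VApcMinL in kit 2 and lower in kit 3, in 3′ counts that do not show whether Lef1 was lost. Xist was high only in the VApcMinL libraries, so sex cannot be told apart from the label.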

How the results depend on the processing

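The 4 differences in share between adenoma and other classes kept their sign under every alternative run, and without each library in turn they ranged from -3.05 to -2.20 (crypt), 14.1 to 14.8 (enterocyte), 6.83 to 8.63 (secretory) and 3.20 to 5.70 points (immune). The cause of the changes below was not tested.

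Members called against crypt cells were 25 with the stricter gate, 42 with library totals, 27 without a filter, 0 without the library block and 2 in the kit 3 libraries only, with medians of -0.35 with the Olfm4 gate, which left 1 crypt cell in VApcMinL replicate 1 and so dropped that library (this gate, the kit 3 fit and library totals were added after the data were seen), and -0.15 with library totals. All genes called lower against crypt cells, from the stricter gate to the kit 3 libraries, were 1118 of 11104, 1736 of 11749, 1881 of 19776, 1281 of 11749 and 1218 of 12257. Those called higher were 1586, 3321, 3346, 1689 and 1324. Against enterocytes 27 members were called without the library block, where 4538 of 12421 genes were higher and 4083 lower. The median was 0.80 with the stricter gate, 0.34 at the 10% mitochondrial limit and 1.22 with library totals. Against secretory cells the calls were 18 (stricter gate), 5 (floor of 5000 UMIs), 72 (library totals, median 0.58), 36 (no filter), 1 (no library block) and 21 (DESeq2). All genes called higher in the same order were 2632 of 11573, 2411 of 11923, 4682 of 11866, 3274 of 19923, 1763 of 11866 and 2251 of 11866. Those called lower were 2771, 2420, 1623, 2587, 1944 and 2342. Members called against immune cells were 10 (floor of 5000 UMIs), 42 (library totals, median 0.34) and 2 (no library block). All genes called higher in the same order were 3266 of 12336, 5201 of 12576 and 3261 of 12576. Those called lower were 2951, 2803 and 3016. Leaving out each library gave 48 to 60, 62 to 72, 2 to 26 and 11 to 22 calls of members against the 4 classes in this order, and medians of -0.020 (without ApcMin replicate 1) to 0.11 against immune cells. All genes called higher were 1983 to 2195, 4761 to 4990, 1909 to 2248 and 3295 to 3587 in the same order. Those called lower were 1770 to 1951, 4271 to 4501, 2036 to 2370 and 3179 to 3308.

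The label differences in share reversed with the stricter gate in crypt (1.43), secretory (-0.381) and immune cells (-0.419). With the replicate block, within-kit values reversed in adenoma (3.22), crypt (2.36) and enterocytes (4.02) in kit 3 and in secretory (-3.82) and immune cells (-0.203) in kit 2. Without each library they ranged from -5.90 to 3.23 (adenoma), -5.01 to 3.64 (crypt), -4.68 to 3.23 (enterocytes), -5.03 to 7.41 (secretory) and -0.0608 to 1.60 (immune). With the kit as replicate block, leaving out 1 library leaves no residual degrees of freedom. Without the block it leaves 1 library under a label, so calls of those fits are not given. The fit of all 4 libraries with no replicate block called 0 members in each class, and 0 of all genes tested. The Rpl22l1 share, adenoma minus enterocyte, was -0.790 with the stricter gate and ranged from -0.592 to 1.18 without each library. Rps27l and Rps29 against enterocytes were 0.36 and 0.61 with library totals. The precision rests on 2 libraries per label, and counts of 3 paralogs near 0 allow no comparison.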
